A study of Mus musculus with 55 samples.

Results

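Mature B cells were set against pre-BI cells, the last and the first of 5 populations of developing B lymphocytes that were sorted out of the marrow of mice. The mature B cells were B220 high and carried surface IgM. The pre-BI cells, the earliest precursors sampled here, were B220 positive and c-kit positive. Arrays were chosen by their titles: 23 of the 55 arrays belonged to these populations and came from 11 of the 26 preparations, 5 of mature B cells (sorts 1, 3, 8, 9 and 11) and 6 of pre-BI cells (sorts 1, 2, 3, 8, 9 and 10). Total RNA was measured on a pair of oligonucleotide array sets with different probe sets, here the first set and the b set. The labels give no strain, age, sex or treatment of the mice, nor whether sorts used separate animals. The p-values therefore describe the spread between these preparations only, which may be technical.

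A B lineage cell assembles its heavy chain gene first, with the recombinase Rag1/Rag2 and the nucleotide-adding enzyme Dntt, and tests the product in a receptor that pairs it with a surrogate light chain made of Vpreb and Igll1. After a burst of division the light chain gene is assembled, surface IgM appears, and the cell leaves the cycle. A mature B cell then carries IgM and IgD, the Fc receptor CD23, complement receptors and MHC class II molecules, with which it shows peptides to helper T cells.

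Levels below are quantile-normalised intensities averaged per preparation. A noise limit, 251 for the first set and 319 for the b set and taken from the spread of negative intensities, marks what can be told from background. Log2 differences of single genes are mature B minus pre-BI, between mean log2 levels raised to this limit. Folds are their size, as higher or lower in mature B cells, and "at least" marks a population in which no preparation exceeded the limit. For an "at least" fold, values of the other population were raised only to the 40th percentile given below. Such a bound can therefore be smaller than the size of the log2 difference. Medians over a list are of the differences fitted by limma, in which levels were raised only to the 40th percentile of all values, 87.6 for the first set and 6.89 for the b set. These include values under the noise limit, so the median with levels raised to the noise limit is given beside them. Adjusted p-values come from limma over all 10229 tested probe sets with a threshold of 0.05, and "rose", "fell" and "passed" refer to that threshold. They belong to the fitted differences and not to the folds or SE printed beside them. Values raised to the noise limit show no spread, so an SE that includes them is too small.

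A first-set array whose title gives it as a repeat of mature B sort 1 was identical in its 6584 values to mature B sort 11, and was used once, under sort 11. On the first set an 18S ribosomal RNA control read 307 to 18619 in sorts 1 to 3 and -77 to 51 in sorts 8 to 11 over these 2 populations; on the b set the ranges were 131 to 16530 and -27 to 263. Both populations hold both groups of sorts, so the counts were also made within sorts 1 to 3 and within sorts 8 to 11. Pre-BI sort 10 had the highest summed levels of granulocyte, monocyte and T and NK cell markers among the pre-BI preparations, as given below.

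The populations differed widely. Of the 10229 probe sets 1106 passed (10.8%), 489 higher (4.78%) and 617 lower (6.03%) in mature B cells; the share was 13.8% for the first set and 7.91% for the b set. Counting each of 5028 genes once, by its brightest probe set, 708 passed (14.1%), 297 as rises (5.91%) and 411 as falls (8.17%), and the median log2 difference over all genes was 0.04, and 0 with levels raised to the noise limit. The preparations of the populations did not overlap in 877 probe sets (8.57%), 406 higher (3.97%) and 471 lower (4.6%), nor in 553 genes (11%), and 770 of the 877 probe sets also passed. The difference was at least 2-fold in 286 of the rises and 354 of the falls. Another 49 of the 1106 lay under the noise limit in all 11 preparations, so their calls rest on values that cannot be told from background. Within sorts 1 to 3, with 2 mature B and 3 pre-BI preparations, 362 probe sets passed, and within sorts 8 to 11, with 3 of each, 835 passed. Of the 1106, 99.8% had the same direction within sorts 1 to 3 and 100% within sorts 8 to 11, against 79.3% and 81.5% of all tested probe sets; these shares reuse the preparations that made the calls. Of the 835 called within sorts 8 to 11 alone, 95.9% had the same direction in sorts 1 to 3, which share no preparation with them, against 61.8% of all tested probe sets.

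The genes of the sort gates were compared first. Ptprc, which encodes the B220 antigen, had 9572, 9317, 9039, 8972 and 8972 in mature B cells (sorts 1, 3, 8, 9 and 11, the order used for mature B cells throughout), against 2148 to 3769 with a median of 2978 in pre-BI cells, 3.2-fold higher (adjusted p = 2.12e-09). Kit, which encodes c-kit, averaged -14.7 ± 40.8 (SD, n = 5) in mature B cells and 285 ± 67.9 (SD, n = 6) in pre-BI cells. Kit passed as lower (adjusted p = 0.000703), but only 2 pre-BI preparations exceeded the noise limit, so no fold is given. The probe set of Ighm, the IgM heavy chain gene, averaged 12804 ± 490 in mature B cells and 10080 ± 1707 in pre-BI cells and did not pass (1.29-fold, adjusted p = 0.125). It does not say whether the signal came from complete heavy chain messages or from transcripts of the unrearranged constant region. Pax5, the B lineage commitment factor, could not be told from background (115 ± 80.7 in mature B cells and 97.5 ± 206 in pre-BI cells), so it does not check either label. Between these 2 populations other markers, given below, went with the labels. Fcer2a, Ms4a1 and most class II genes were high in mature B cells, and Dntt, Igll1, Vpreb1 and Rag1 in pre-BI cells. Ms4a1 averaged more in the sorted immature B cells (7130) than in mature B cells (3366). Rag1 averaged more in small pre-BII (5182) than in pre-BI cells (2332), so neither sets its population apart from all others. Il7r, a pre-BI marker named after its values were seen, passed as lower (adjusted p = 0.047), but only 2 pre-BI preparations exceeded the noise limit. Because RNA was measured over each sort, fewer cells of a type and less RNA per cell cannot be told apart in any of these values.

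MHC class II and peptide loading was the list with the highest share of rises. Of its 13 genes 12 rose and none fell, and the median log2 difference of the list was 4.6, and 3.57 with levels raised to the noise limit. H2-Eb1, the class II E beta chain, had 15541, 13079, 14965, 14373 and 16826 in mature B cells, against -869 to 347 with a median of -94.2 in pre-BI cells. Only 1 pre-BI preparation exceeded the noise limit for H2-Eb1, and the groups lay far apart (46.1-fold, log2 difference 5.53 ± 0.06 SE). The other pre-BI values were set to the limit, so 46.1-fold is close to a bound and the SE leaves out their spread. The fitted log2 difference was 8.73 ± 1.01 SE (adjusted p = 1.08e-07). H2-Aa, the A alpha chain, had 8051, 8266, 8190, 7944 and 8641 in mature B cells by the probe set with its largest difference, against 82.7 to 270 with a median of 155 in pre-BI cells, 31.9-fold higher (adjusted p = 2.76e-14). Its brightest probe set gave 21829, 16420, 18655, 20543 and 21829 in mature B cells, against 208 to 2296 with a median of 593 in pre-BI cells. The highest pre-BI value of that probe set belonged to sort 10; the fitted log2 difference without sort 10 was 5.42 (adjusted p = 6.32e-16). H2-Ab1, the A beta chain, had 10388, 8033, 10859, 13477 and 12162 in mature B cells, against -90 to 518 with a median of 114 in pre-BI cells, 30.2-fold higher (adjusted p = 1.26e-06).

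The invariant chain and the loading machinery rose with the classical chains. Cd74, the invariant chain that guides class II molecules to the endosome, had 18071, 18766 and then 21583 in each of sorts 8, 9 and 11 of mature B cells, against 323 to 2190 with a median of 798 in pre-BI cells. Cd74 was 24.3-fold higher (log2 difference 4.6 ± 0.47 SE, adjusted p = 7.96e-12); equal values arise because quantile normalisation gives probe sets of equal rank the same level. H2-DMb1, a chain of the DM molecule that catalyses peptide exchange, had 4743, 3626, 3310, 3239 and 4168 in mature B cells, against 61.6 to 223 with a median of 131 in pre-BI cells, at least 11.9-fold higher (adjusted p = 2.93e-11). Its probe set may also read the near-identical H2-DMb2. H2-DMa, the other DM chain, averaged 3974 ± 2293 in mature B cells and -326 ± 356 in pre-BI cells, at least 11.1-fold higher (adjusted p = 1.89e-09). Both chains of the DM inhibitor DO were higher as well: H2-Ob averaged 8551 ± 949 in mature B cells and 699 ± 263 in pre-BI cells (12.9-fold, adjusted p = 1.57e-10), and H2-Oa 3035 ± 553 and 478 ± 180 in the same order (6.57-fold, adjusted p = 3.12e-06).

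Endosomal proteases that trim the invariant chain and antigens followed. Ctsh, cathepsin H, had 5247, 6449, 7279, 5767 and 5331 in mature B cells, against -46.4 to 645 with a median of 185 in pre-BI cells, 18.5-fold higher (adjusted p = 4.28e-10). Ctss, cathepsin S, the main protease of the invariant chain in B cells, averaged 7975 ± 665 in mature B cells and 2329 ± 452 in pre-BI cells (3.47-fold, adjusted p = 2.86e-08), so pre-BI cells already held a clear signal. Lgmn, the asparaginyl endopeptidase, averaged 761 ± 304 in mature B cells and 214 ± 166 in pre-BI cells (2.16-fold, adjusted p = 0.0107). Ciita, the coactivator that switches on class II genes, lay near the noise limit: 333, 297, 239, 274 and 201 in mature B cells, against -140 to 110 with a median of 20.1 in pre-BI cells. Ciita passed and its preparations did not overlap (adjusted p = 1.23e-05), with a bound of at least 1.05-fold. The 1 gene of the list that did not pass was H2-Ea, the E alpha chain (adjusted p = 0.914). The count of 12 rises was the same without pre-BI sort 10 and within sorts 8 to 11, and was 11 within sorts 1 to 3.

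The start regions of class II genes carry a conserved arrangement of short elements, the X box bound by the RFX complex and the Y box bound by NF-Y, on which Ciita acts. Sequences around these elements are shown for 5 genes of the class II list that rose. Windows come from the RefSeq promoter table (GRCm38.p6, 250 bases before to 50 after each gene start) and were read 5′ to 3′ on the strand of the gene. They were H2-Aa at chr17:34287840-34287932 on the minus strand, and, on the plus strand, H2-Eb1 at chr17:34305747-34305839, H2-DMb1 at chr17:34153069-34153161, H2-Ob at chr17:34238787-34238879 and H2-Oa at chr17:34092275-34092367. Capitals mark GATTGG, the Y box core, in either orientation, and AACNNATG, letters from the X box that were chosen with these sequences in view.
H2-Aa: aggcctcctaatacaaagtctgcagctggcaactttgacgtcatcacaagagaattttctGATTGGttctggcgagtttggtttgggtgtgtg
H2-Eb1: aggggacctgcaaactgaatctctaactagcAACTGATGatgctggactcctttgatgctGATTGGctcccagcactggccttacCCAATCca
H2-DMb1: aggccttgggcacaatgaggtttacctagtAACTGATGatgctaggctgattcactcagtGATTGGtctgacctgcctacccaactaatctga
H2-Ob: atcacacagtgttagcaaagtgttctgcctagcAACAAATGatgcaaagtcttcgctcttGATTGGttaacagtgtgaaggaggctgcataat
H2-Oa: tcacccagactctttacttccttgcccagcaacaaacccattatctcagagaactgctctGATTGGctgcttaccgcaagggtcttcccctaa

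Of the 8 genes of the class II list that have a sequence in the table, 6 held GATTGG on either strand (H2-Aa, H2-DMa, H2-DMb1, H2-Eb1, H2-Oa and H2-Ob), against 18.2% of 27025 promoters. AACNNATG was held on either strand by 4 of the 8 (Ctss, H2-DMb1, H2-Eb1 and H2-Ob), and by 10.2% of all promoters, and ended 22 bases before GATTGG in H2-DMb1, 21 in H2-Eb1 and 19 in H2-Ob. Because those letters were chosen with these sequences in view, nothing is read from that difference. A match describes letters and is not evidence of a bound site.

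**Figure D1:**
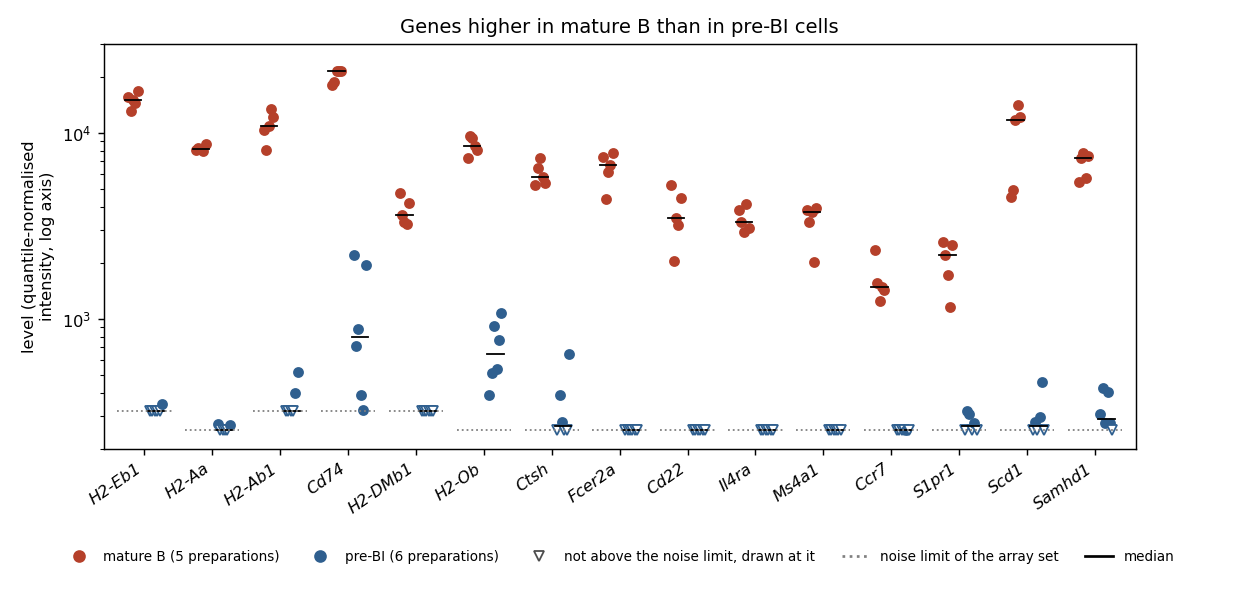
Levels of 15 genes that were higher in mature B cells (red, 5 preparations, left of each pair) than in pre-BI cells (blue, 6 preparations, right), on a log axis. H2-Aa and Ms4a1 are each drawn by the probe set with the largest difference. Dotted lines are the noise limit of the array set, open triangles are preparations not above it and drawn at it, and bars are medians. Every mature B value lies above every pre-BI value of its gene.

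Receptors that mark the mature B cell surface rose next. Of 28 genes of this list 19 rose and none fell, with a median log2 difference of 1.63, and of 1.46 with levels raised to the noise limit. Fcer2a, the low-affinity IgE receptor CD23, had 7367, 4409, 6178, 6743 and 7728 in mature B cells, against -262 to 224 with a median of -16.5 in pre-BI cells, at least 25.3-fold higher (log2 difference 4.66 ± 0.14 SE, adjusted p = 1.5e-13). No pre-BI preparation exceeded the noise limit for Fcer2a, so the SE of 0.14 holds the mature B spread alone. The fitted log2 difference was 5.84 ± 0.37 SE. Cd22, an inhibitory coreceptor, had 5224, 2038, 3479, 3202 and 4443 in mature B cells, against -109 to 227 with a median of 91.5 in pre-BI cells, at least 13.9-fold higher (adjusted p = 2.43e-10). Il4ra, the interleukin 4 receptor, had 3819, 3313, 2909, 4125 and 3063 in mature B cells, against -70.6 to 225 with a median of 124 in pre-BI cells, at least 13.6-fold higher (adjusted p = 9.07e-12). Ms4a1, which encodes CD20, had 3836, 3324, 3722, 2027 and 3922 in mature B cells, against -84.8 to 60.8 with a median of -2.39 in pre-BI cells. By this probe set, the one with its largest difference, Ms4a1 was at least 13-fold higher (adjusted p = 1.39e-13). Its brightest probe set, which the list count uses, also rose, with an adjusted p above that of Cd22. By the probe sets shown for these 4 receptors, the pre-BI cells were at background in all 6 preparations. Cd55, which protects cells from complement, averaged 2344 ± 742 in mature B cells and 72.1 ± 97.1 in pre-BI cells (at least 8.9-fold, adjusted p = 1.49e-11), and the adhesion molecule Cd2 averaged 2129 ± 752 in mature B cells and -31.7 ± 84.7 in pre-BI cells (at least 6.35-fold, adjusted p = 7.02e-11). Cr2, the complement receptor CD21, averaged 631 ± 227 in mature B cells and -28.7 ± 65.3 in pre-BI cells by its brightest probe set (at least 1.87-fold, adjusted p = 1.16e-05); another probe set of Cr2 had the opposite sign.

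Immunoglobulin genes and the signalling chain behind the receptor rose in part. Of 5 immunoglobulin genes tested 2 rose and none fell, a count of rises that was 1 on values as deposited and 0 within sorts 1 to 3. Ighd, the IgD heavy chain gene, had 1019, 754, 701, 1023 and 987 in mature B cells, against -128 to 88.4 with a median of 48.5 in pre-BI cells, at least 2.78-fold higher (adjusted p = 0.000162). Iglc1, a lambda constant region, averaged 2118 ± 607 in mature B cells and 899 ± 253 in pre-BI cells (2.36-fold, adjusted p = 0.00026), though probe sets of this family may read several members. A kappa variable probe set assigned to Igkv4-91, named after its values were seen, averaged 1440 ± 174 in mature B cells and 154 ± 137 in pre-BI cells (4.48-fold, adjusted p = 4.45e-05). Within sorts 1 to 3 the adjusted p was 0.165 for Ighd, 0.188 for Iglc1 and 0.128 for Igkv4-91.

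Of 26 B cell receptor signalling genes 13 rose and 1 fell, with a median log2 difference of 0.9, and of 0.84 with levels raised to the noise limit. Blk, a Src family kinase of B cells, had 8543, 8818, 8900, 11536 and 8473 in mature B cells, against 1569 to 3015 with a median of 2556 in pre-BI cells, 4.06-fold higher (adjusted p = 1.29e-09). The adaptor Lat2 averaged 2079 ± 274 in mature B cells and 288 ± 113 in pre-BI cells (6.55-fold, adjusted p = 1.94e-07), and Ptpn6, the phosphatase SHP-1, averaged 5434 ± 1602 in mature B cells and 1387 ± 406 in pre-BI cells (3.93-fold, adjusted p = 5.74e-07). Cd79b, a signalling subunit that also serves the pre-B cell receptor, averaged 10270 ± 1338 in mature B cells and 4666 ± 1939 in pre-BI cells (2.36-fold, adjusted p = 2.97e-05). Without normalisation between arrays 5 genes of this list rose.

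Among 19 homing and adhesion genes 7 rose and 2 fell (median log2 difference 0.59, and 0.1 with levels raised to the noise limit). Ccr7, which guides lymphocytes into lymph nodes, had 2348, 1548, 1245, 1478 and 1424 in mature B cells, against -3.78 to 253 with a median of 203 in pre-BI cells, 6.24-fold higher (adjusted p = 1.29e-08). S1pr1, the receptor that lets lymphocytes leave tissues for the blood, had 2573, 2196, 1715, 1158 and 2476 in mature B cells, against 31.3 to 319 with a median of 252 in pre-BI cells, 7.08-fold higher (adjusted p = 8.13e-08). Both receptors had no pre-BI value near the mature B range. Itgb7, the integrin subunit of gut homing, averaged 1306 ± 419 in mature B cells and 134 ± 204 in pre-BI cells (4.68-fold, adjusted p = 1.6e-05), and Icam2 averaged 1956 ± 98.1 in mature B cells and 587 ± 176 in pre-BI cells (3.4-fold, adjusted p = 2.31e-07). Emb, the adhesion protein embigin, fell: it averaged 121 ± 36.4 in mature B cells and 677 ± 214 in pre-BI cells (at least 2.61-fold lower, adjusted p = 1.2e-05). Klf2, the factor that drives S1pr1 transcription in lymphocytes, had 10180, 2641, 5157, 3877 and 4944 in mature B cells, against 483 to 1150 with a median of 1047 in pre-BI cells, 5.26-fold higher (adjusted p = 6.39e-08). Klf2 was 1 of 5 rises among 22 B lineage transcription factors, of which 1 fell.

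Several survival and feedback genes were higher in mature B cells, although most members of these lists did not pass. Of 26 survival and apoptosis genes 4 rose and 1 fell, and of 26 immediate-early and NF-kB feedback genes 9 rose and 2 fell. Over all genes 14.1% passed in either direction, 5.91% as rises. Birc3 and Mcl1 count as rises in both lists. Birc3, an inhibitor of apoptosis and NF-kB target, had 3144, 1918, 3265, 2426 and 2053 in mature B cells, against 96.1 to 377 with a median of 185 in pre-BI cells, 8.85-fold higher (adjusted p = 2.12e-09). Mcl1, a survival member of the Bcl2 family, averaged 4648 ± 804 in mature B cells and 1359 ± 544 in pre-BI cells (3.7-fold, adjusted p = 1.76e-06). Nfkbia, the NF-kB inhibitor, averaged 3830 ± 1268 in mature B cells and 1234 ± 325 in pre-BI cells (3.08-fold, adjusted p = 5.19e-06). Btg1, an anti-proliferative gene, averaged 3770 ± 1186 in mature B cells and 893 ± 105 in pre-BI cells (4.06-fold, adjusted p = 1.94e-07). It was 1 of 3 rises, beside 1 fall, among 19 genes of CDK inhibition and quiescence. Nothing particular to the survival list or the quiescence list is read from these counts.

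Among the 12 largest rises were also 2 enzymes outside these lists. Scd1, which puts a double bond into fatty acids, had 4534, 4910, 11663, 14050 and 12169 in mature B cells, against 97 to 457 with a median of 229 in pre-BI cells, 29.3-fold higher (log2 difference 4.87 ± 0.38 SE, adjusted p = 2.63e-11). Within mature B cells, sorts 8, 9 and 11 were more than 2-fold above sorts 1 and 3. Samhd1, which breaks down deoxynucleotides, had 5419, 7279, 7767, 5694 and 7489 in mature B cells, against 187 to 424 with a median of 291 in pre-BI cells, 21.1-fold higher (adjusted p = 2.76e-14).

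Most genes of receptor assembly fell. Of 10 surrogate light chain and recombination genes 8 fell and none rose, with a median log2 difference of -4.18, and of -3.12 with levels raised to the noise limit. Dntt, the terminal transferase, had 51.7, 32.2, -85, 83.6 and -22.1 in mature B cells, against 7592 to 8474 with a median of 7998 in pre-BI cells, at least 25.2-fold lower (log2 difference -4.65 ± 0.03 SE, adjusted p = 1.77e-09). No mature B preparation exceeded the noise limit for Dntt, and the 6 pre-BI preparations lay close together. The SE of 0.03 thus holds the pre-BI spread alone, and the fitted log2 difference was -8.44 ± 0.79 SE. Igll1, the lambda 5 part of the surrogate light chain, had -104, -69.7, 19.6, -82 and -115 in mature B cells, against 1225 to 6162 with a median of 2839 in pre-BI cells, at least 8.8-fold lower (adjusted p = 1.27e-08). The pre-BI values of Igll1 were 1486, 1859 and 1225 in sorts 1 to 3 and 6090, 6162 and 3820 in sorts 8 to 10, so these sorts did not overlap. Vpreb1, the other part, had 349, 242, 161, 102 and 174 in mature B cells, against 3634 to 5733 with a median of 4394 in pre-BI cells, 13.8-fold lower (adjusted p = 4.49e-06), by a probe set that may also read Vpreb2. Vpreb3, a chaperone of assembling receptor chains, had 63.1, 358, 1296, 1780 and 492 in mature B cells, against 5363 to 8900 with a median of 7384 in pre-BI cells, 11.4-fold lower (adjusted p = 1.6e-08). Vpreb3 stayed above the noise limit in 4 of 5 mature B preparations and varied widely among them.

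Rag1, a subunit of the recombinase, had 17.3, -29.1, -23, -135 and -22.7 in mature B cells, against 1250 to 3737 with a median of 2224 in pre-BI cells, at least 8.6-fold lower (adjusted p = 1.57e-12). Its partner Rag2, named after its values were seen, averaged -158 ± 179 in mature B cells and 546 ± 444 in pre-BI cells (at least 1.69-fold lower, adjusted p = 0.00162). The chromatin proteins Hmgb1 and Hmgb2, which bend DNA and assist the recombinase, fell to different degrees. Hmgb2 had 143, 128, 94, 63.1 and 43.6 in mature B cells, against 2939 to 6219 with a median of 5356 in pre-BI cells, at least 14.9-fold lower (adjusted p = 3.6e-07). Hmgb1 averaged 3591 ± 688 in mature B cells and 11527 ± 1277 in pre-BI cells, 3.24-fold lower (adjusted p = 5.02e-10).

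Surface and regulatory genes of progenitors fell in part. Of 16 progenitor surface and signalling genes 10 fell and none rose, and of 13 progenitor transcription factors 4 fell and none rose. The median log2 differences of these lists were -2.41 and -0.48, and only -0.31 and -0.04 with levels raised to the noise limit, since many of their values lay under it. Cd93, the AA4.1 antigen of early B cells, had 188, 713, 481, 679 and 708 in mature B cells, against 6802 to 11994 with a median of 8271 in pre-BI cells, 16.9-fold lower (adjusted p = 2.18e-14). Lgals1, galectin 1, averaged 351 ± 96.3 in mature B cells and 3619 ± 284 in pre-BI cells (9.77-fold lower, adjusted p = 1.37e-10). Enpep, the BP-1 antigen by which early B cells are staged, averaged 236 ± 60.3 in mature B cells and 1647 ± 604 in pre-BI cells (5.82-fold lower, adjusted p = 1.09e-07). The endothelial and progenitor receptor Eng averaged -182 ± 295 in mature B cells and 1106 ± 361 in pre-BI cells (at least 3.33-fold lower, adjusted p = 2.55e-07).

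Myb, a transcription factor of haematopoietic progenitors, had 175, 208, 650, 476 and 439 in mature B cells, against 6280 to 9962 with a median of 7889 in pre-BI cells, 20-fold lower (log2 difference -4.32 ± 0.29 SE, adjusted p = 1.42e-14). Another probe set of Myb had the opposite sign. Lef1, which acts in Wnt signalling and early B cell growth, had -32.6, 103, -81, -86.8 and -41.1 in mature B cells, against 242 to 2718 with a median of 563 in pre-BI cells, at least 2.24-fold lower (adjusted p = 0.000184). Sox4, needed for the earliest B cell stages, averaged 202 ± 41.8 in mature B cells and 1169 ± 513 in pre-BI cells (at least 3.41-fold lower, adjusted p = 0.000731). Ptgr1, an oxidoreductase of prostaglandins and leukotrienes that stood in none of the lists, had -259, 30, -116, -268 and -121 in mature B cells, against 4785 to 6629 with a median of 5367 in pre-BI cells. Ptgr1 had the lowest adjusted p of the genes described here (at least 21.8-fold lower, adjusted p = 5.23e-18).

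**Figure D2:**
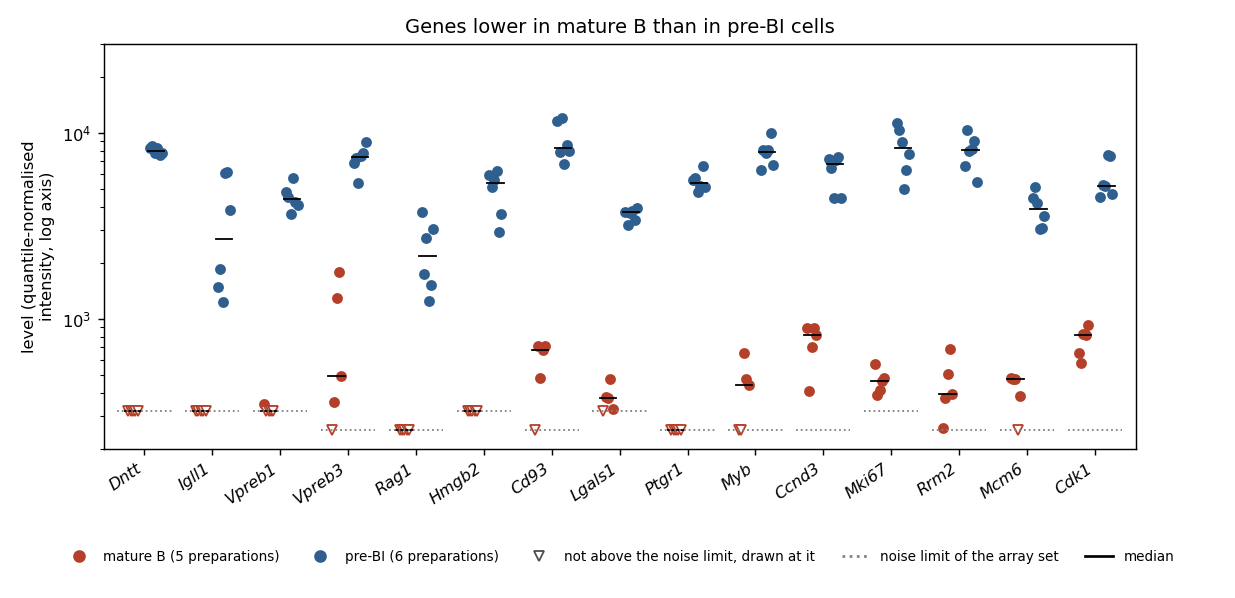
Levels of 15 genes that were lower in mature B cells (red, 5 preparations, left of each pair) than in pre-BI cells (blue, 6 preparations, right), on a log axis. Dotted lines are the noise limit of the array set, open triangles are preparations not above it and drawn at it, and bars are medians. Every mature B value lies below every pre-BI value of its gene.

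Many genes of the dividing cell fell. Of 46 genes of G2 and mitosis 39 fell and none rose, of 34 DNA replication genes 23 fell and none rose, and of 12 G1 cyclins, pocket proteins and E2F genes 6 fell and none rose. The median log2 differences of these lists were -2.5, -1.7 and -1.34, and -1.48, -1.18 and -1.1 with levels raised to the noise limit. The counts of these lists were 26, 15 and 2 on values as deposited, and 23, 13 and 4 within sorts 1 to 3. Mki67, the proliferation antigen Ki-67, had 570, 389, 415, 459 and 477 in mature B cells, against 4990 to 11264 with a median of 8283 in pre-BI cells, 17.3-fold lower (log2 difference -4.12 ± 0.21 SE, adjusted p = 1.15e-14). Mature B cells stayed slightly above the noise limit for Mki67 in all 5 preparations. Cdk1, the kinase of mitotic entry, had 655, 577, 825, 820 and 925 in mature B cells, against 4534 to 7612 with a median of 5191 in pre-BI cells, 7.53-fold lower (adjusted p = 1.43e-10). Its cyclin Ccnb2 averaged 211 ± 47.4 in mature B cells and 1679 ± 280 in pre-BI cells (at least 5.21-fold lower, adjusted p = 1.47e-10). Cks1b, a Cdk subunit, averaged 93.3 ± 43.5 in mature B cells and 3264 ± 598 in pre-BI cells (at least 12.8-fold lower, adjusted p = 1.57e-11), and Prc1, which bundles the midzone of the spindle, averaged -102 ± 120 in mature B cells and 1367 ± 458 in pre-BI cells (at least 5.21-fold lower, adjusted p = 3.91e-12). Nusap1, a spindle protein, averaged 215 ± 155 in mature B cells and 3743 ± 996 in pre-BI cells (12.5-fold lower, adjusted p = 2.16e-08).

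Enzymes that make deoxynucleotides fell together with the replication machinery. Rrm2, the small subunit of ribonucleotide reductase, had 257, 374, 502, 689 and 391 in mature B cells, against 5419 to 10316 with a median of 8094 in pre-BI cells, 18.5-fold lower (adjusted p = 7.81e-09). The large subunit Rrm1 averaged 206 ± 144 in mature B cells and 2312 ± 424 in pre-BI cells (8.03-fold lower, adjusted p = 4.53e-09), thymidine kinase Tk1 58 ± 62.8 and 1341 ± 355 in the same order (at least 5.19-fold lower, adjusted p = 3.94e-09), and thymidylate synthase Tyms 132 ± 84.4 and 1292 ± 315 (at least 5.01-fold lower, adjusted p = 5.44e-08). Mcm6, a subunit of the helicase that licenses origins, had 482, 476, 475, 120 and 384 in mature B cells, against 3038 to 5077 with a median of 3879 in pre-BI cells, 9.51-fold lower (adjusted p = 5.46e-08). Mcm5, named after its values were seen, had 199, -122, 417, 11.5 and 80.9 in mature B cells, against 2093 to 3836 with a median of 3177 in pre-BI cells, 10.8-fold lower (adjusted p = 1.16e-07). Neither helicase gene had a mature B value within the pre-BI range.

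E2F factors bind letters of the form TTTNGCGC in the promoters of replication genes. The windows around such letters upstream of the start are shown for Mcm5 (chr8:75109316-75109403, plus strand) and Mcm6 (chr1:128359768-128359855, minus strand), 2 helicase genes with large falls, from the RefSeq table (GRCm38.p6). Capitals mark TTTNGCGC on either strand, with its 2 orientations overlapping in both windows.
Mcm5: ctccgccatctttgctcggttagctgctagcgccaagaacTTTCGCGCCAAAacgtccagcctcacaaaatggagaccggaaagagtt
Mcm6: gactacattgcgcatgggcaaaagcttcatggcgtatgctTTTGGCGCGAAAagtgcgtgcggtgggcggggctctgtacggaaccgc

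Of the 32 replication genes with a sequence, 8 held TTTNGCGC on either strand (Cdt1, Dnmt1, Lig1, Mcm3, Mcm5, Mcm6, Mcm7 and Pola1), against 1.57% of 27025 promoters. The other 24 did not hold these letters in the window, which says nothing about the binding of E2F elsewhere.

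In G1, the D-type cyclins and their kinase partner were lower. Ccnd3 had 892, 408, 702, 894 and 812 in mature B cells, against 4428 to 7420 with a median of 6802 in pre-BI cells, 8.46-fold lower (adjusted p = 2.71e-12). Ccnd2, named after its values were seen, averaged 55.4 ± 75.5 in mature B cells and 821 ± 328 in pre-BI cells (at least 3.04-fold lower, adjusted p = 5.59e-08). Cdk4, their kinase partner, had 616, 578, 1649, 1682 and 1637 in mature B cells, against 2471 to 8900 with a median of 3793 in pre-BI cells, 3.74-fold lower (adjusted p = 0.00031). In both populations Cdk4 was lower in sorts 1 to 3 than in the later sorts, and it fell within each (it did not pass on values as deposited, adjusted p = 0.145). Cdkn2c, which inhibits Cdk4 and Cdk6, also fell: it averaged 441 ± 176 in mature B cells and 1487 ± 470 in pre-BI cells (3.33-fold lower, adjusted p = 0.00245).

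Some genes of energy metabolism and protein synthesis fell. Of 37 oxidative phosphorylation genes 13 fell and none rose (median log2 difference -0.68, and -0.55 with levels raised to the noise limit), a count that was 2 without normalisation between arrays and 2 within sorts 1 to 3. Cox5a, a subunit of cytochrome oxidase, averaged 1772 ± 374 in mature B cells and 3462 ± 482 in pre-BI cells (1.97-fold lower, adjusted p = 0.000166). Of 15 glycolysis genes 4 fell and 3 rose. Gapdh had 2797, 3480, 4103, 4025 and 3976 in mature B cells, against 5733 to 12845 with a median of 8479 in pre-BI cells, 2.4-fold lower (adjusted p = 4.2e-05). Slc16a1, a lactate transporter, averaged 44.9 ± 87.5 in mature B cells and 763 ± 220 in pre-BI cells (at least 2.89-fold lower, adjusted p = 1.49e-07), whereas a probe set of Aldoa, the aldolase, averaged 2927 ± 967 in mature B cells and 1252 ± 533 in pre-BI cells and rose (2.52-fold, adjusted p = 0.0069, and 0.286 at the highest over the alternatives). Of 43 genes of Myc, ribosome biogenesis and translation factors 10 fell and none rose (-0.51, and -0.33 with levels raised to the noise limit), among them the translation helicase Eif4a1, which averaged 1121 ± 243 in mature B cells and 2937 ± 1181 in pre-BI cells (2.5-fold lower, adjusted p = 0.000383).

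Over all genes 14.1% passed in either direction, and ribosomal protein, interferon-response and MHC class I genes passed at no higher a share. Nothing particular to these 3 lists is read from their counts. Of 40 ribosomal protein genes 1 rose and 2 fell (median log2 difference 0.04, and 0.03 with levels raised to the noise limit), and of 20 interferon-response genes 1 rose and 1 fell (-0.01, and 0). Of 15 genes of MHC class I and processing 2 rose and none fell (0.13 on both scales), beside 12 rises of 13 for class II. The difference between the class I and class II lists was not tested. One of the rises was H2-M3, a non-classical class I gene, with 2124 ± 474 in mature B cells and 597 ± 189 in pre-BI cells (3.63-fold, adjusted p = 5.77e-06). Of 22 cytokine receptor and Jak-Stat genes 4 rose and 3 fell; the kinase Jak1 averaged 2024 ± 338 in mature B cells and 667 ± 193 in pre-BI cells (3.11-fold, adjusted p = 0.000905). Of 39 actin and cytoskeleton regulators 7 rose and 7 fell, with a median of 0.07, and of 0 with levels raised to the noise limit; the 0.07 was -0.01 with scaling by the 75th percentile and -0.09 on values as deposited. Stmn1, which destabilises microtubules, had 57.9, 1.96, 9.63, 92.3 and -66.2 in mature B cells, against 567 to 4128 with a median of 2039 in pre-BI cells, at least 5.18-fold lower (adjusted p = 7.92e-08), while Capg, an actin-capping protein, averaged 1503 ± 413 in mature B cells and 223 ± 73.2 in pre-BI cells (4.55-fold higher, adjusted p = 2.36e-06).

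**Figure D3:**
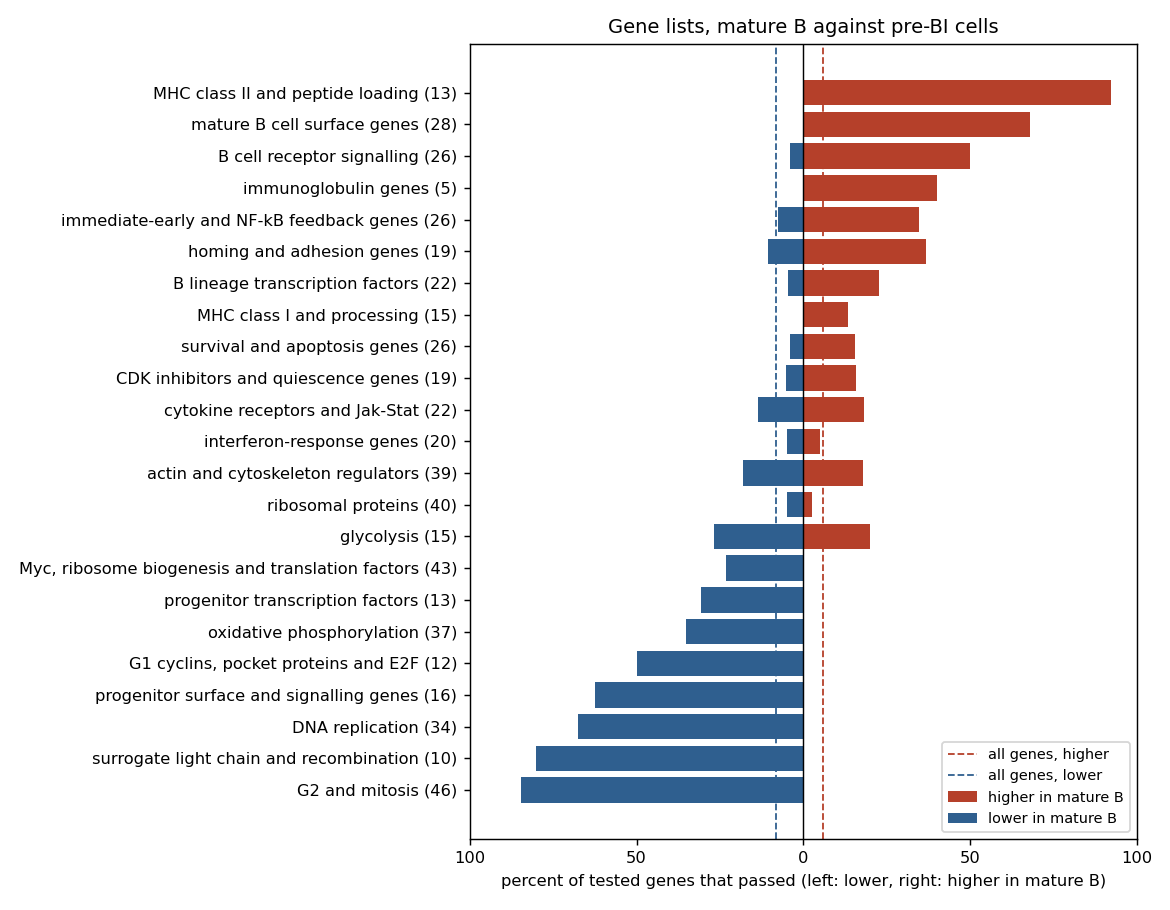
Percent of the tested genes of each list that were higher (red, right) or lower (blue, left) in mature B than in pre-BI cells at an adjusted p under 0.05, with the number of genes tested in brackets and dashed lines at the shares over all 5028 genes. MHC class II and mature B cell surface genes head the rises, and G2 and mitosis, surrogate light chain and recombination, and DNA replication the falls.

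Markers of other cell types were read beside these results. The summed level of 20 granulocyte and myeloid markers ranged from 10479 to 14561 in mature B cells and from 12251 to 30362 in pre-BI cells, highest in pre-BI sort 10; of the 16 tested 2 rose and 2 fell. Of the 20, 7 were above the noise limit in every mature B preparation and 5 in every pre-BI preparation. Lyz2, a lysozyme of myeloid cells, averaged 3700 ± 535 in mature B cells and 5503 ± 1814 in pre-BI cells (1.44-fold lower, adjusted p = 0.203), and Ngp, a neutrophil granule protein, averaged 3324 ± 1019 in mature B cells and 4187 ± 1634 in pre-BI cells (1.18-fold lower, adjusted p = 0.787). The 2 that rose were Prtn3 and Cybb. Prtn3 averaged 417 ± 100 in mature B cells and 76.9 ± 106 in pre-BI cells (at least 1.62-fold higher, adjusted p = 0.000493). It was above the noise limit in all 5 mature B preparations. Cybb averaged 621 ± 328 in mature B cells and 138 ± 67.2 in pre-BI cells (at least 1.76-fold higher, adjusted p = 0.00557). The 2 that fell were Anxa1, annexin A1, and Fcer1g, the shared gamma chain of Fc receptors. Anxa1 averaged 563 ± 262 in mature B cells and 2639 ± 670 in pre-BI cells (4.91-fold lower, adjusted p = 1.78e-05), and Fcer1g averaged 1434 ± 159 in mature B cells and 3492 ± 1574 in pre-BI cells (2.26-fold lower, adjusted p = 0.00226; fitted log2 difference -0.98 and adjusted p = 0.0102 without pre-BI sort 10). Mpo and Elane, which define granulocyte precursors, were above the noise limit in no preparation of either population. The 13 monocyte, macrophage and dendritic markers summed to 1926 to 3458 in mature B cells and 2586 to 5511 in pre-BI cells, again highest in pre-BI sort 10; C1qa and Adgre1 were above the limit in none, and Mpeg1 and Ccr2 in every pre-BI preparation. Mpeg1, a pore-forming protein of macrophages, averaged 211 ± 111 in mature B cells and 1160 ± 552 in pre-BI cells (3.2-fold lower, adjusted p = 0.00163), and the chemokine receptor Ccr2 averaged 601 ± 391 in mature B cells and 1328 ± 434 in pre-BI cells (2.31-fold lower, adjusted p = 0.0751). Ccr2 passed when pre-BI sort 2 or mature B sort 11 was left out (adjusted p = 0.0481 and 0.0273). The 15 T and NK cell markers summed to 584 to 1305 in mature B cells and 1825 to 6110 in pre-BI cells, with pre-BI sort 10 the highest, and Cd3e, Cd3d and Cd3g were above the limit in no preparation. Of the 13 tested T and NK markers 3 fell. One of these, Gzma, a granzyme of cytotoxic cells, had 89.6, 110, 137, 195 and 150 in mature B cells, against 836 to 2416 with a median of 1105 in pre-BI cells, at least 3.87-fold lower (adjusted p = 2.05e-07). Another, the chemokine Ccl5, reached 2199 in pre-BI sort 10 and 69.6 to 336 in the other 5 pre-BI preparations. Erythroid and megakaryocyte markers summed to 18011 to 24716 in mature B cells and 11191 to 25430 in pre-BI cells, and none of 8 passed; Hba-a1 averaged 11208 ± 1729 in mature B cells and 10499 ± 2426 in pre-BI cells (adjusted p = 0.854). Of 6 plasma cell markers none passed, and of 13 stromal and endothelial markers 1 passed as higher, at levels under the noise limit in all but 1 mature B preparation. The part of other cells in the results was not tested. Without pre-BI sort 10, 1002 probe sets passed, and the counts were 12 of 13 for class II, 19 of 28 for mature surface genes, 8 of 10 for surrogate light chain and recombination, 23 of 34 for replication and 40 of 46 for G2 and mitosis.

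The populations between these ends placed the changes along development. Of the 286 rises of at least 2-fold, 92 had the means of large pre-BII, small pre-BII and immature B cells all between those of pre-BI and mature B cells. Between neighbouring populations the largest upward step was large pre-BII over pre-BI in 27, small over large pre-BII in 94, immature B over small pre-BII in 105 and mature B over immature B in 60. Of the 354 falls, 114 had all 3 middle populations between the ends. Their largest downward step was at large pre-BII in 63, at small pre-BII in 200, at immature B in 38 and at mature B cells in 53. The step between large and small pre-BII cells was thus the largest for 200 of the 354. In 185 of the falls a middle population exceeded pre-BI cells, and in 100 of the rises a middle population exceeded mature B cells.

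The lists differed in this path. The median log2 difference from pre-BI cells, with levels raised to the noise limit, for the class II list was 0 at the large pre-BII stage, 0.03 at the small one, 1.67 at the immature stage and 3.57 at the mature stage. For mature B cell surface genes it was 0, 0.33, 1.72 and 1.46 in that order. For G2 and mitosis it was 0.96, -1.12, -1.65 and -1.48, and for DNA replication 0.17, -1.06, -1.27 and -1.18. Surrogate light chain and recombination genes had -0.23, -0.3, -2.28 and -3.12. The class II list thus had its high values in immature and mature B cells, and the cell cycle lists were already low in small pre-BII cells.

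**Figure D4:**
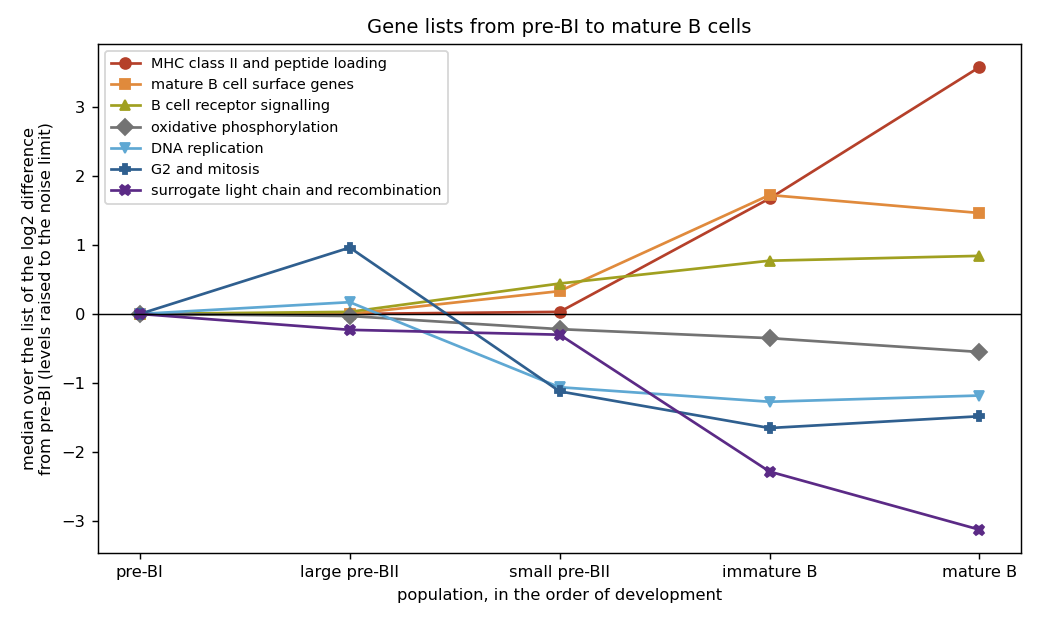
Median over each of 7 gene lists of the log2 difference from pre-BI cells, after levels were raised to the noise limit, along the 5 populations in the order of development (5 preparations each, 6 of pre-BI cells). MHC class II ends at 3.57 and surrogate light chain and recombination at -3.12 in mature B cells, and G2 and mitosis peaks at 0.96 in large pre-BII cells.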

How the data were processed

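The deposited files hold 1 intensity per probe set and array on a linear scale, with 28 arrays of 6584 probe sets in the first set and 27 arrays of 6595 in the b set; the sources used here do not say how the authors extracted, summarised and scaled these intensities. Gene symbols came from the platform annotation: of 13069 probe sets other than controls, 7553 had 1 symbol, 224 several and 5292 none. The number of arrays limits the precision.

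After removal of 110 control probe sets, quantile normalisation was applied within each table, whose arrays spanned a 5.6-fold (first set) and 4.23-fold (b set) range of 2% trimmed means. Arrays of a preparation were averaged, and log2 was taken after a floor at the 40th percentile, 87.6 for the first and 6.89 for the b set. A probe set was tested if 5 or more of the 26 preparations exceeded the floor (5019 and 5210 probe sets). All 5 populations entered a fit per set (R 4.3.3, limma 3.58.1; lmFit, eBayes with trend, two-sided), with Benjamini-Hochberg adjustment over both sets together. The noise limit is 2 robust standard deviations of the negative values and was exceeded by 40% of first-set values and 20.1% of b-set values.

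On simulated data with the spread of these preparations, 38% of log2 changes of 1 and 89% of changes of 2 were recovered on the first set (5019 probe sets, 12 false calls), and 7% and 28% on the b set (5210 probe sets, 2 false calls).

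Genes were named from the gate genes and markers, the 12 largest rises and falls (1 symbol, adjusted p under 0.05, at least 2-fold, no overlap), up to 6 passing members of each list by adjusted p or otherwise its 2 brightest, and, for each list that marks another cell type, its 2 brightest members. Not every gene picked by this rule is described. Of the 12 largest falls H2ax was left out (12.9-fold lower, adjusted p = 2.1e-09). A list member is measured by its brightest probe set. Some genes stand in several lists, such as Cd22, H2-Ob and Tubb5, so the counts of different lists are not independent. Ctss, H2-Oa, Lgmn, H2-Ea, Pax5 and markers of other cell types at background were named outside this rule after their values were seen, as were others where the text says so. The comparison, the gene lists and the rules were chosen with earlier results of these data known.

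Equal sort numbers were checked for pairing by correlating deviations from population means: r was 0.126, 0.205, 0.242 and 0.0596 for sorts 1, 3, 8 and 9. Unequal numbers gave r from -0.215 to 0.15. For mature B sorts 1, 3 and 8 the pre-BI sort of equal number had the highest r, and for sort 9 it did not. Not every r of equal numbers exceeded 0.1, so the numbers were not taken to pair the preparations. The labels do not say what equal numbers share, and the count with sort number as a block is given below. Alternatives varied the normalisation, floor, filter, batch, second arrays, the shared array and each preparation left out in turn.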

Additional observations from a re-analysis of the deposited data

Results flagged for a closer look

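Of 186 groups of 5 or 6 preparations looked at, 1 for each named probe set and population on the log2 scale with values raised to the 40th percentile, 18 held a preparation far from the others by Dixon's criterion. Chance flags about 1 in 20 groups of untied normal values, a rate that does not hold where values were raised to the 40th percentile. For Igll1, Eng, Lef1, Ciita and H2-DMa all other values of the group lay at that percentile, so the flag follows from the floor. Of the mature B values, Blk was high in sort 9 (11536, others 8473 to 8900), Ms4a1 low in sort 9 (2027, others 3324 to 3922), and Mcm6 low in sort 9 (120, others 384 to 482). Of the pre-BI values, Klf2 was low in sort 9 (483, others 901 to 1150), Icam2 low in sort 3 (262, others 527 to 732), Emb high in sort 9 (1100, others 511 to 677), Slc16a1 low in sort 1 (353, others 674 to 911), Ngp low in sort 1 (1214, others 3401 to 5467) and Hba-a1 low in sort 8 (5894, others 10537 to 13058). Pre-BI sort 10 was high for Cd22 (227) and H2-DMa (200) and low for S1pr1 (31.3), all under the noise limit. The remaining ones also lay under the noise limit: Ciita at 110 in pre-BI sort 2, and in mature B cells Igll1 at 19.6 and Slc16a1 at 160 in sort 8, Eng at 23.9 in sort 11, and Lef1 at 103 and Tk1 at 123 in sort 3.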

How the results depend on the processing

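The count of 1106 changed probe sets (489 higher, 617 lower in mature B cells) stayed within 1.5-fold under 25 of 27 alternatives. It was 528 on values as deposited, without normalisation between arrays (217 higher, 311 lower), and 362 within sorts 1 to 3, which hold 2 mature B and 3 pre-BI preparations (160 higher, 202 lower). Leaving out 1 preparation at a time gave 955 to 1056 in all, 421 to 468 higher and 517 to 592 lower. The 2 populations fitted alone gave 1014, eBayes without a trend 1050, the shared array counted as mature B sort 1 gave 1011 and the same array left out 1015. With sort number as a replicate block 1294 passed; the numbers were not taken to pair the preparations, and mature B sort 9 correlated more with pre-BI sort 10 (r = 0.103) than with pre-BI sort 9 (0.0596). With the groups of sorts as a block 1217 passed.

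Of 93 results for named probe sets that were recomputed, 3 changed sign, and none of these passed. The 93 leave out H2-Ea, Il7r, Prtn3, Cybb and the markers at background. The fitted log2 difference of Ngp was 0.27 within sorts 1 to 3, that of Hba-a1 was -0.14 within sorts 1 to 3 and lay between -0.04 (without pre-BI sort 8) and 0.19 with 1 preparation left out, and that of Pax5 was -0.19 with the floor at the 60th percentile. The recomputed genes that lost their call under some alternative kept their direction, most of them within sorts 1 to 3. Aldoa, Cd79b, Cdk4, Cdkn2c, Iglc1 and Jak1 did so on values as deposited (adjusted p at most 0.289 over all alternatives). Ccl5 and Lgmn did so in the fit of 2 populations alone (0.124 and 0.114). Rag2 did so with the floor at the 60th percentile (0.152) or at the noise limit (0.126). Within sorts 1 to 3 the adjusted p was 0.544 for Ccl5, 0.291 for Lgmn and 0.178 for Rag2. Within sorts 8 to 11 Aldoa, Fcer1g, Jak1, Mpeg1 and Rag2 did not pass (at most 0.167), nor did Fcer1g on values as deposited (0.424). Ccr2 passed with the shared array left out (0.0259) and with sort number as a block (0.0254). The causes were not tested. Few b set values lie above noise, which limits what could be detected there.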
